A study of Homo sapiens with 12 samples.

Results

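RNA-seq of T47D cells was used to ask what anastrozole did to the transcriptome when estradiol (E2) was already present. T47D is an estrogen receptor-positive line from a human breast carcinoma, and its cells were kept in charcoal-stripped serum and then without serum before treatment. Members of the comparison were chosen by their labels alone, and comprised 3 libraries of cells given E2 (0.1 nM) and 3 given anastrozole (10 nM) plus the same E2, so that both groups carried E2 and only one carried anastrozole. They are 6 of the 12 libraries of the series, the others being 3 of vehicle and 3 of anastrozole alone, and all 21132 genes with a count in any library were tested. The labels give 12 hours of treatment, while the study's methods give a longer time. All samples came from 1 cell line, and the study's methods name independent experiments for gene expression in general, without saying so of these libraries. Where replicates a, b and c were not separate cultures, p-values measure the spread between these samples only.

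Anastrozole blocks aromatase, the product of CYP19A1, which converts androgens to estrogens. E2 binds estrogen receptor α (ESR1), which then activates target genes such as PGR and GREB1. Cells given E2 directly do not depend on aromatase for that ligand. Epithelial cells balance free zinc between importers of the SLC39 (ZIP) family, exporters of the SLC30 (ZnT) family and metallothioneins, which bind surplus metal. The sensor MTF1 activates metallothionein genes and SLC30A1 when zinc is high. Cholesterol synthesis is set by SREBP transcription factors, which raise most enzymes of the pathway together when sterols are low.

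Gene counts of these 6 libraries totalled 12665826 to 17009776, and genes took 33.0% to 33.5% of all reads counted or left without a gene. A count of 3 in 1 library corresponded to 0.177 to 0.237 CPM (counts scaled to the library's total), which covers counting error only. Luminal epithelial markers summed to 8348 to 8627 CPM in E2 libraries and 8825 to 8912 CPM in anastrozole plus E2 libraries, with KRT19 highest. Of these 10 markers, 1 passed the test as higher as the counts stand. Calls of these and the following markers stand beside 6.74% of all genes called in either direction, and 0.937% after GC correction. The 5 endothelial markers summed to at most 0.417 CPM, and PTPRC, COL3A1 and FABP4 were at 0 in all 6 libraries. Basal epithelial markers summed to 112.8 to 115.0 CPM with E2 and 120.2 to 125.2 CPM with anastrozole added, and 1 of the 6 was higher as the counts stand. Fibroblast markers summed to 81.2 to 92.0 CPM with E2 and 96.0 to 101.9 CPM with anastrozole added, nearly all of it COL1A1 (92.2 CPM on average), the only 1 of the 7 to pass the test as the counts stand, and 0 luminal, basal or fibroblast markers passed after the GC correction described next. The part of these markers in the results was not tested.

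At an adjusted p under 0.05 (edgeR quasi-likelihood test, Benjamini-Hochberg), 1424 genes changed when anastrozole was added to E2, 682 higher and 742 lower, or 6.74% of the genes tested. Most of these followed base composition. Across 10871 genes of at least 3 log2 CPM on average, the log2 difference rose with the GC content of the exons (Spearman's rho = 0.68 across genes, which are not independent replicates). With these genes ranked on GC content and cut into 5 bins of equal size, 1 gene of the lowest bin (31.0% to 40.6%) was higher and 446 were lower. In the highest bin (57.5% to 73.8%), 450 were higher and 1 was lower. The 3 E2 libraries leaned one way (rho of library level with GC content −0.53 to −0.34) and the 3 anastrozole plus E2 libraries the other (0.42 to 0.49), so that a GC trend of the libraries and an effect of the drug that follows GC content cannot be told apart. Counts of calls in the comparison with E2 present are therefore given in 2 ways, as the counts stand and with each library's GC trend removed as an offset. Log2 differences of single genes are given in either way or both. Those of anastrozole without E2 are given as the counts stand unless marked corrected. With the trend removed, 198 genes passed (97 higher, 101 lower; 0.937% of those tested) and rho was 0.0068. Both fits called 139 genes in the same direction, 67 higher and 72 lower, which is 9.76% of the first list and 70.2% of the second. The median absolute log2 difference of these 139 genes was 0.17 with the trend removed, and 9 exceeded 0.5.

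**Figure D1:**
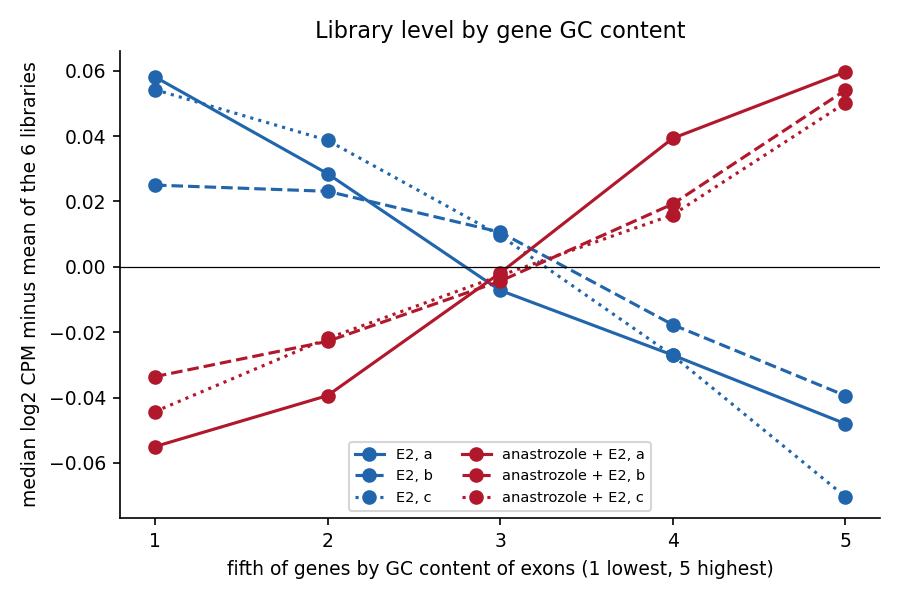
Median log2 CPM of each library relative to the mean of the 6 libraries (y axis), by bin of genes ranked on exon GC content (x axis, 1 lowest to 5 highest), with E2 libraries in blue and anastrozole plus E2 libraries in red. The 3 red lines rise from between −0.06 and −0.03 in the lowest bin to between 0.05 and 0.06 in the last, and the 3 blue lines fall.

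**Figure D2:**
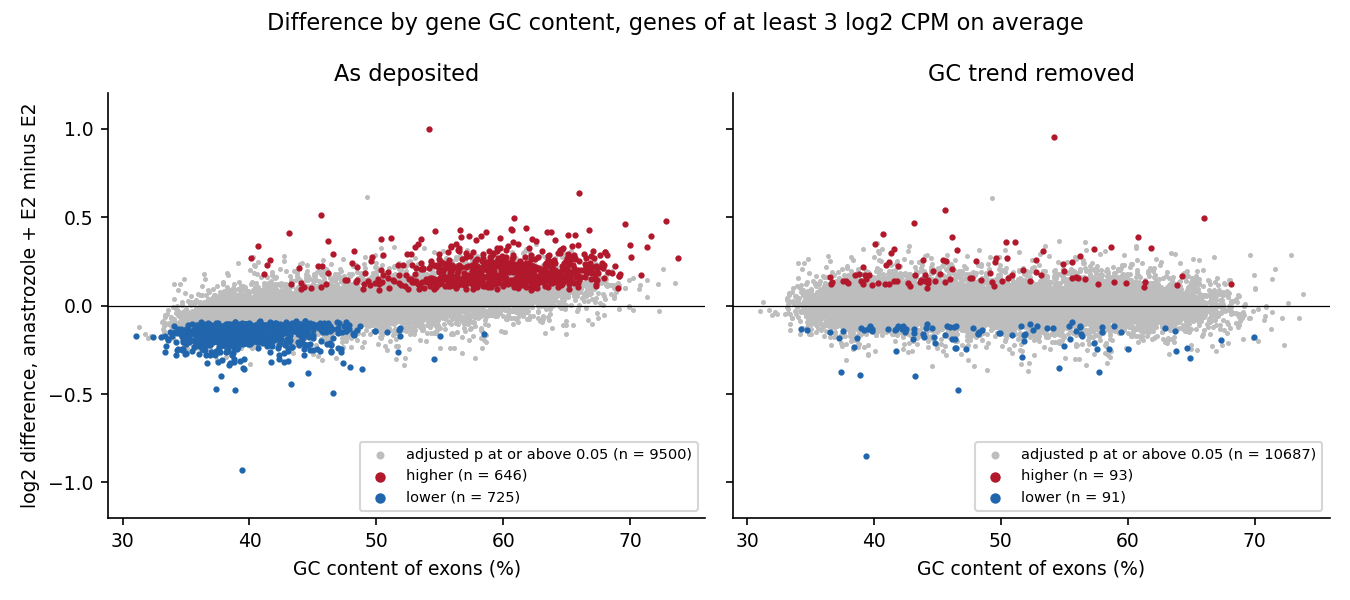
Log2 difference of anastrozole plus E2 minus E2 (y axis) against exon GC content in percent (x axis), 1 point per gene of at least 3 log2 CPM, as the counts stand (left) and with the GC trend removed (right); red and blue mark adjusted p under 0.05. On the left, 646 red and 725 blue points lie mainly at opposite ends of the x axis, and on the right 93 red and 91 blue points spread along it.

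A gene from each end shows what lies behind this split. AP1S2, a small subunit of the AP-1 clathrin adaptor, has 34.2% GC in its exons and read 49.6, 51.1 and 52.9 CPM in E2 libraries against 41.5, 41.7 and 43.6 with anastrozole added. Its log2 difference was −0.28 ± 0.06 (SE; adjusted p = 0.000186) as the counts stand and −0.16 ± 0.06 (adjusted p = 0.221) with the trend removed. NOXA1, an activator subunit of an NADPH oxidase, has 70.0% GC and read 32.3, 34.0 and 32.8 CPM against 42.0, 42.6 and 41.5. Its log2 difference went from 0.34 ± 0.06 (adjusted p = 1.34e-05) to 0.17 ± 0.06 (adjusted p = 0.236). Neither pair of groups overlapped in either fit. Of the 1285 genes called only as the counts stand, the 670 lower ones had a median GC content of 39.2% and the 615 higher ones 60.8%. The first 60 bases of the longest coding exon of NOXA1 (GRCh37; exon 1, chr9:140317982-140318041, plus strand) show its composition, with G and C, 43 of these bases, in capitals:
NOXA1: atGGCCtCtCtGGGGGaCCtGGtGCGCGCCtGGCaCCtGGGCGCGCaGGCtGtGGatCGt

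Zinc handling held the most negative and the most positive log2 difference among the genes of at least 2 log2 CPM that passed in both fits. With the GC trend removed, SLC39A10, a plasma membrane zinc importer, was at 0.554 times its E2 level, MT2A, a metallothionein, at 1.94 times, and SLC30A1, the zinc exporter of the plasma membrane, at 1.32 times. Before their values, the promoters of the rising pair are shown, because MTF1 acts through metal response elements whose core is TGCACNC or TGCGCNC. The 250 bases before the start site are from RefSeq on GRCh38.p14 (MT2A, chr16:56608334-56608583, plus strand; SLC30A1, chr1:211579162-211579411, minus strand), with matches to either core on either strand in capitals:
MT2A: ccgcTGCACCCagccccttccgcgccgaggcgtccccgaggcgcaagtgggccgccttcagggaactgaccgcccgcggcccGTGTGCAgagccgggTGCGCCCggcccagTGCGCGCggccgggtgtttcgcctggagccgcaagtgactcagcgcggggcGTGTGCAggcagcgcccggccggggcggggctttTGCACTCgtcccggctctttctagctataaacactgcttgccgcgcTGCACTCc
SLC30A1: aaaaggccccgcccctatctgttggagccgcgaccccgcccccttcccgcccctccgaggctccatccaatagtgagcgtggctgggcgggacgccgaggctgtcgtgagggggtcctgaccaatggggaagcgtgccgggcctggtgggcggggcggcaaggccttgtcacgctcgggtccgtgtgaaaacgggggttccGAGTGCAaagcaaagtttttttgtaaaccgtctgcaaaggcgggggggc
MT2A held 7 matches, a number reached by 0.03% of 35116 such windows, and SLC30A1 held 1, and 24.8% of windows held at least 1. Neither of the 2 windows of SLC39A10 held a match. The window of MT1X, a metallothionein gene that did not pass in either fit, held 4 matches, a number reached by 0.37% of windows. A match is a description of letters and not a site, and a part of MTF1 in these differences was not tested.

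SLC39A10 (chr2:196440701-196602426 on GRCh37, plus strand) read 72.6, 70.9 and 73.4 CPM in E2 libraries a, b and c, and 35.5, 41.6 and 36.7 CPM when anastrozole was added. The groups lay far apart, with the highest anastrozole plus E2 library well below the lowest E2 library. The log2 difference was −0.93 ± 0.05 (adjusted p = 9.6e-63), and −0.85 ± 0.05 (adjusted p = 3.8e-54) with the GC trend removed. In bulk RNA, fewer cells expressing a gene and less RNA per cell cannot be told apart. MT2A (chr16:56642496-56643409, plus strand) read 8.91, 8.80 and 6.73 CPM with E2 and 16.7, 15.3 and 16.9 CPM with anastrozole added. Its groups did not overlap, and the log2 difference was 1.002 ± 0.10 (adjusted p = 6.5e-18) and, with the GC trend removed (corrected), 0.95 ± 0.10 (adjusted p = 3.8e-16). SLC30A1 (chr1:211744910-211752503, minus strand) read 19.1, 17.7 and 18.9 CPM with E2 and 22.8, 25.3 and 21.9 CPM with anastrozole added, again without overlap. Its log2 difference was 0.33 ± 0.08 (adjusted p = 0.00096), and 0.41 ± 0.08 (adjusted p = 0.00011) corrected. All 3 genes passed, with and without the GC correction, in each of the 6 fits that left out 1 library.

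Few other zinc genes passed the test. Of 29 listed zinc transporters, metallothioneins and MTF1 that were tested, 2 rose and 1 fell as the counts stand, and 2 rose and 2 fell with the GC trend removed, where over all genes 6.74% and then 0.937% were called. The median log2 difference of the 19 members of at least 3 log2 CPM was −0.04 and −0.02, beside −0.0024 and −0.00028 over all genes of that level. The members named next were picked after their values were seen. The additional lower gene was SLC39A1, another importer, at −0.12 ± 0.03 (adjusted p = 0.024) corrected and −0.04 (adjusted p = 0.62) uncorrected. A readthrough gene covers 60.8% of its exons on the same strand, and the call was lost without E2 replicate a, b or c or without anastrozole plus E2 replicate c. SLC39A6, an importer known as an estrogen-induced gene, read 141, 146 and 148 CPM against 134, 136 and 137, and passed in neither fit. MT1X, another metallothionein, read 0.946, 0.768 and 0.347 CPM with E2 and 1.48, 1.18 and 1.22 CPM with anastrozole added. Its groups did not overlap, but its log2 difference of 0.92 ± 0.36 (0.88 ± 0.36 corrected) did not pass (adjusted p = 0.11 and 0.33). MTF1 itself read 34.9 to 37.2 CPM against 34.5 to 38.0 CPM, with overlapping groups.

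Of 4 iron genes picked after their values were seen, TFRC and FTH1 passed in both fits. TFRC, the transferrin receptor that brings iron into cells, read 4541, 4562 and 4518 CPM with E2 and 3886, 4052 and 3997 CPM with anastrozole added, and fell by 0.19 ± 0.03 on the log2 scale (adjusted p = 1.3e-09) or, corrected, by 0.13 ± 0.02 (adjusted p = 7.1e-05). FTH1, the heavy chain of the iron store ferritin, rose by 0.12 ± 0.03 (adjusted p = 0.0022) and by 0.11 ± 0.03 (adjusted p = 0.0097) corrected, from 734, 804 and 821 CPM to 846, 829 and 885 CPM. Exons of BEST1 on the opposite strand cover 63.2% of FTH1, and the strand setting of the counting is not given. The FTH1 call was lost without E2 replicate a or without anastrozole plus E2 replicate c, while TFRC passed without any 1 library. The light chain FTL passed in neither fit (0.10 ± 0.04, adjusted p = 0.066), and the iron exporter SLC40A1 passed only as the counts stand (−0.09 ± 0.03, then −0.03 ± 0.03 with adjusted p = 0.82).

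**Figure D3:**
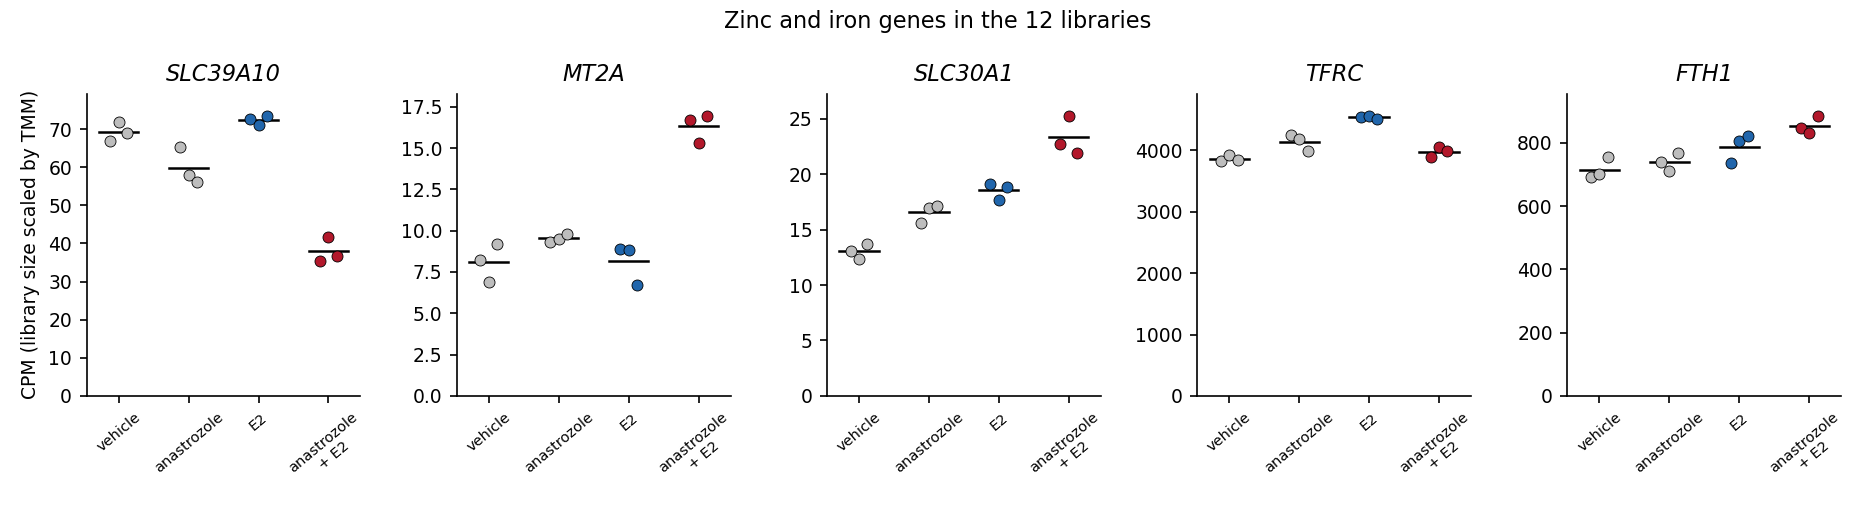
CPM of 5 zinc and iron genes (y axes, each from 0) in the 12 libraries, 1 point per library and a bar at the mean of the 3 libraries of a group. SLC39A10 sits at 35.5 to 41.6 CPM with anastrozole plus E2 and at 56.1 CPM or above elsewhere; MT2A sits at 15.3 to 16.9 CPM with anastrozole plus E2 and at 9.77 CPM or below elsewhere.

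Several genes of cholesterol synthesis were lower with anastrozole added. Of 27 genes of cholesterol synthesis and its SREBP control, 9 fell and 1 (SREBF1) rose as the counts stand, against 6.74% of all genes called in either direction. With the GC trend removed 8 fell and none rose, in a background of 0.937% called in either direction. Calls were more frequent among all genes of at least 3 log2 CPM, the level of 26 members. Of 10871 genes of that level with a GC value, 646 rose and 725 fell as the counts stand, and 93 and 91 corrected. With the trend removed, 26 members of at least 3 log2 CPM had a median log2 difference of −0.08, against −0.00028 over all genes of that level. Members other than IDI1, FDPS and SC5D were named after their values were seen. The 5 that fell in both fits were the enzymes IDI1, FDPS, SQLE and SC5D and the regulator INSIG1. IDI1, which isomerises isopentenyl diphosphate, read 601, 583 and 595 CPM with E2 and 509, 507 and 488 CPM with anastrozole added, a log2 difference of −0.24 ± 0.03 (adjusted p = 2.0e-12) or −0.19 ± 0.03 (adjusted p = 5.5e-08) corrected. FDPS, which makes farnesyl diphosphate, read 398, 407 and 406 CPM against 375, 350 and 348 CPM (−0.17 ± 0.03, adjusted p = 5.2e-06; corrected −0.23 ± 0.03, adjusted p = 1.6e-11). SC5D, a desaturase late in the pathway, read 262, 256 and 258 CPM against 214, 217 and 209 CPM (−0.28 ± 0.03, adjusted p = 1.7e-13; corrected −0.18 ± 0.03, adjusted p = 1.4e-05). In all 3 enzymes every library with anastrozole lay below every E2 library, and each call held without any 1 library.

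Calls of the other members depended more on the correction or on single libraries. SQLE, the squalene epoxidase, and INSIG1, a sterol-sensing retention factor of SREBP processing, fell by 0.17 and 0.16 on the log2 scale, and by 0.11 (adjusted p = 0.030) and 0.12 (adjusted p = 0.043) corrected. HMGCS1, MSMO1 and CYP51A1 were 3 of the 4 members that fell only as the counts stand, and these 3 have an exon GC content of 38.9% to 40.9%. MVD, LSS and DHCR7, with 56.2% to 63.0% GC, passed only with the trend removed, at −0.12 each. The regulators SREBF2 and SREBF1 (−0.07 and 0.03 corrected) did not pass with the trend removed. Depending on the library left out, 3 to 9 members fell with the trend removed: 4, 3 and 5 without E2 replicates a, b and c, and 9, 5 and 3 without anastrozole plus E2 replicates a, b and c. A gene on the same strand shares 68.2% of the exons of CYP51A1.

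**Figure D4:**
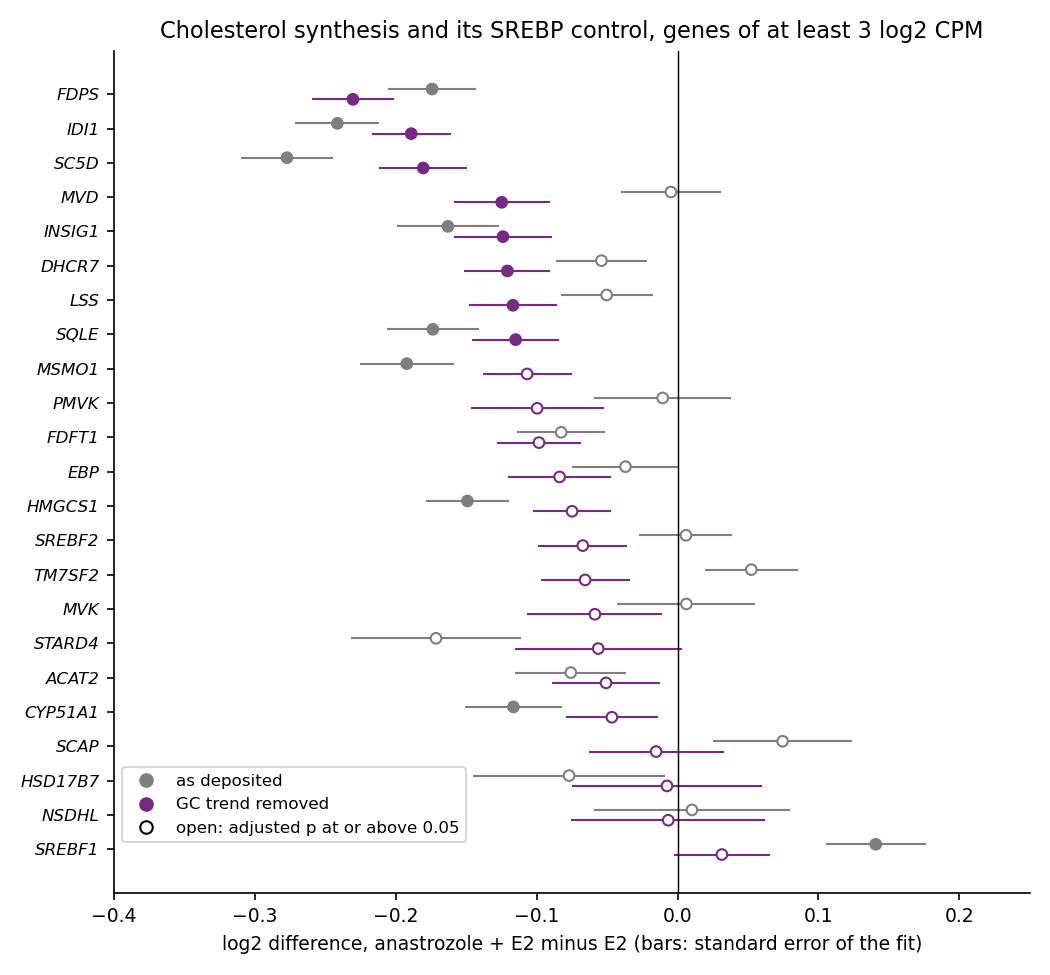
Log2 difference of anastrozole plus E2 minus E2 (x axis; bars, standard error of the fit) for 23 of the 26 cholesterol genes of at least 3 log2 CPM (the other 3 are not shown here), as the counts stand (grey) and with the GC trend removed (purple); filled points have adjusted p under 0.05. The 8 filled purple points lie left of 0, with FDPS lowest at −0.23.

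The genes ACSS2, ACSL1, SCD and LPIN1, which act on fatty acids and other lipids, were picked after their values were seen, and no list of such genes was examined. ACSS2, a cytosolic acetyl-CoA synthetase, read 109, 119 and 108 CPM against 98.8, 101 and 99.0 CPM (−0.17 ± 0.04, adjusted p = 0.00089; corrected −0.20 ± 0.04, adjusted p = 0.00012). ACSL1, an acyl-CoA synthetase, changed by −0.21 and −0.19 (adjusted p = 3.0e-07 and 1.0e-05), and SCD, the stearoyl-CoA desaturase, by −0.13 and −0.11 (adjusted p = 8.0e-05 and 0.0020). The lipin gene LPIN1 changed by −0.26 and −0.24, the latter just within the threshold (adjusted p = 0.0496). The corrected calls of ACSS2 and SCD were lost without E2 replicate b, and that of LPIN1 without E2 replicate a or b or anastrozole plus E2 replicate a or b. In the lysosomal list of 40 genes, 4 rose and 4 fell as the counts stand (background 6.74%), and 1 rose and 2 fell corrected (background 0.937%). LIPA, which hydrolyses cholesteryl esters, and NPC2, which passes cholesterol out of lysosomes, fell in both fits, by 0.15 ± 0.03 and 0.14 ± 0.04 corrected. LIPA lost this call without E2 replicate b, and NPC2 without E2 replicate a or b or anastrozole plus E2 replicate b or c. CTSD was the only lysosomal gene to rise in both fits.

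Among genes outside metal and sterol handling, the larger decreases were of genes at low to moderate levels. KIF5C, a kinesin heavy chain of neurons, read 6.62, 4.61 and 5.55 CPM with E2 and 3.15, 3.48 and 2.72 CPM with anastrozole added (−0.82 ± 0.17, adjusted p = 0.00019; corrected −0.79 ± 0.17, adjusted p = 0.0016). RHBDL3, a rhomboid-like protein, and FAM184A changed by −0.52 ± 0.13 and −0.39 ± 0.09 corrected (adjusted p = 0.010 and 0.0029). ERVV-2, an endogenous retroviral envelope gene, read 17.0, 16.7 and 15.9 CPM against 10.3, 13.2 and 11.8 CPM (corrected −0.48 ± 0.09, adjusted p = 0.00031). ZNF143, a zinc finger activator of many promoters, read 26.4, 25.6 and 26.4 CPM against 17.6, 19.1 and 20.9 CPM (corrected −0.40 ± 0.07, adjusted p = 8.7e-05). S100A4, a calcium-binding protein linked to cell motility, read 37.5, 37.5 and 38.2 CPM against 31.1, 29.4 and 31.5 CPM (corrected −0.35 ± 0.07, adjusted p = 8.6e-05). IER3, an immediate early gene, fell by 0.25 ± 0.04 corrected (adjusted p = 1.3e-05), and TXNRD1, the cytosolic thioredoxin reductase, by 0.12 ± 0.03 (adjusted p = 0.017). The antisense gene IER3-AS1 covers 32.6% of IER3. APOBEC3B, a DNA cytidine deaminase, changed by −0.29 ± 0.07 (adjusted p = 0.00865), and its call was lost without E2 replicate a or anastrozole plus E2 replicate a. Corrected calls were also lost for KIF5C without E2 replicate a, for FAM184A without E2 replicate b or anastrozole plus E2 replicate a, for RHBDL3 without E2 replicate c or anastrozole plus E2 replicate a or c, and for TXNRD1 without E2 replicate a or b or anastrozole plus E2 replicate b.

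The larger increases were likewise of genes at low to moderate levels. FOXJ1, the master regulator of motile cilia, read 9.78, 9.87 and 9.79 CPM with E2 and 16.5, 14.3 and 14.9 CPM with anastrozole added (0.64 ± 0.10, adjusted p = 2.3e-07; corrected 0.49 ± 0.10, adjusted p = 0.000525). CDC20B, which lies in a gene cluster active in multiciliated cells, read 13.2, 11.8 and 12.0 CPM against 17.3, 18.0 and 17.3 CPM (corrected 0.54 ± 0.09, adjusted p = 7.2e-06). CSRP1, a LIM protein of the actin cytoskeleton, read 69.4, 65.7 and 63.9 CPM against 86.3, 82.4 and 90.0 CPM (0.38 ± 0.04, adjusted p = 1.1e-13; corrected 0.36 ± 0.04, adjusted p = 6.8e-13). ODC1, the rate-limiting enzyme of polyamine synthesis, read 15.3, 17.8 and 15.6 CPM against 22.3, 21.9 and 19.1 CPM (corrected 0.36 ± 0.08, adjusted p = 0.0030). In these genes no anastrozole plus E2 library overlapped an E2 library. ALDH3B1, PLEKHG4, ARHGAP40 and PRRT3 rose by 0.32 to 0.39 corrected, and TMEM261 by 0.35. Exons of CRELD1 on the opposite strand cover 40.5% of PRRT3. NME1, a nucleoside diphosphate kinase, changed by 0.39 ± 0.08 corrected (adjusted p = 0.00027), but its groups overlapped at 15.6, 18.5 and 21.1 against 27.1, 20.4 and 23.7 CPM, and the call was lost without E2 replicate a or anastrozole plus E2 replicate a. RPS16, a ribosomal protein gene, and ATP5G1, a subunit of ATP synthase, passed in both fits at 0.14 and 0.18 corrected, with overlapping groups for ATP5G1 and, once corrected, for RPS16. Corrected calls were lost for ODC1 without E2 replicate a or anastrozole plus E2 replicate a or b, for TMEM261 without E2 replicate a or anastrozole plus E2 replicate a or c, and for PRRT3 without replicate c of either group. They were lost for RPS16 without E2 replicate a or b or anastrozole plus E2 replicate a, and for ATP5G1 without those or anastrozole plus E2 replicate c.

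A further set of genes, all but ERBB2 and NEAT1 picked after their values were seen and standing for no group, is given with its values. TFF3, a trefoil peptide and known estrogen target, read 106, 120 and 129 CPM against 148, 135 and 140 CPM (0.25 ± 0.04, adjusted p = 1.3e-08; corrected 0.20 ± 0.04, adjusted p = 4.6e-05). MUC1, a membrane mucin, changed by 0.22 and 0.13 (adjusted p = 1.8e-09 and 0.0023), and ERBB2 by 0.20 and 0.12 (adjusted p = 4.7e-07 and 0.016). SERPINA3, an acute phase serpin, read 36.9, 42.0 and 41.9 CPM against 50.3, 47.8 and 48.8 CPM and rose by 0.28 and 0.27. The complement genes C3 and CFB rose by 0.17 and 0.19 corrected (adjusted p = 0.039 and 2.2e-05). MYC, a growth-promoting transcription factor, read 45.7, 45.8 and 45.5 CPM against 52.8, 55.0 and 53.0 CPM (corrected 0.20 ± 0.06, adjusted p = 0.031). The nuclear long noncoding RNA NEAT1 rose by 0.10 and 0.14 (adjusted p = 0.012 and 4.6e-05). The RNA-binding proteins EWSR1 and SFPQ rose by 0.17 and 0.15 corrected (adjusted p = 0.00012 and 0.0022), and TAF15, of the same family as EWSR1, was at 0.08 ± 0.03 (adjusted p = 0.23). The corrected calls of MUC1 (without E2 replicate a or b), ERBB2 (also without anastrozole plus E2 replicate b), TFF3 (without E2 replicate a) and SFPQ (without replicate c of either group) were lost with 1 library left out. Corrected, C3 and MYC passed only when anastrozole plus E2 replicate a was the library left out. As the counts stand, both passed in all 6 fits that left out 1 library. Genes on the same strand share 42.3% of the exons of CFB and 31.7% of those of SERPINA3.

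The drug's target and the receptor of E2 gave no call. CYP19A1 had values of 0, 0.0591 and 0 CPM in E2 libraries and 0.123, 0 and 0.143 CPM with anastrozole added, all under the 3-count floor of their libraries, so no difference was detectable at this depth. ESR1 read 169, 166 and 163 CPM against 170, 173 and 175 CPM, with groups that did not overlap but a log2 difference of only 0.05 ± 0.03 (adjusted p = 0.44), or 0.09 ± 0.03 (adjusted p = 0.20) corrected. PGR, the progesterone receptor, read 2302, 2254 and 2322 CPM against 2033, 2256 and 2243 CPM and was at −0.07 ± 0.03 (adjusted p = 0.076), or −0.00 ± 0.03 corrected. GREB1 read 565, 580 and 564 CPM against 594, 598 and 585 CPM, at 0.06 ± 0.03 (adjusted p = 0.30) and 0.02 ± 0.03. TFF1 stayed between 1.34 and 2.24 CPM in all 6 libraries. Of 26 estrogen-induced target genes, 4 rose as the counts stand (CTSD, IGFBP4, RARA and KCNK5) and 1 rose and 1 fell corrected, in backgrounds of 6.74% and 0.937%. Of the 4, CTSD, an aspartic protease, also rose with the trend removed (0.24 ± 0.03, then 0.11 ± 0.03, adjusted p = 0.00595). That call was lost without E2 replicate a or b or anastrozole plus E2 replicate b, and the other members were named after their values were seen. OLFM1 passed only with the trend removed, at −0.15 ± 0.03 (adjusted p = 0.00039). In vehicle libraries PGR read 2038 to 2352 CPM and GREB1 508 to 532 CPM. CSMD1, a membrane protein with complement control domains, read 12.4, 12.2 and 12.0 CPM against 13.1, 12.7 and 15.2 CPM and did not pass (0.16 ± 0.10, adjusted p = 0.41).

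Calls in the other lists are to be read against 6.74% of all genes called as the counts stand and 0.937% corrected, and nothing is read from them as particular to a list. Among all genes of at least 3 log2 CPM a larger share was called than among all genes tested, which bears on every list. Of 10871 such genes, 646 were higher and 725 lower as the counts stand, and 93 and 91 corrected. Of 20 estrogen receptors, pioneer factors and coregulators, 3 passed as the counts stand and 0 corrected. For 24 listed enzymes of estrogen metabolism the numbers were 2 and 0, with CYP1B1 lower before correction. Of 37 genes of DNA replication, 1 rose and 4 fell, then 0 passed. Of 26 mitosis genes 2 rose and 2 fell, then 0. Of 37 actin and adhesion genes 7 rose and 3 fell, then 0. Among 79 cytosolic ribosomal protein genes 13 rose and 0 fell, and 2 rose after correction, and their median log2 difference was 0.06 before and 0.05 after. Of 31 hypoxia and glycolysis genes 6 passed as the counts stand and none of these corrected, while ALDOC passed only corrected (−0.11 ± 0.03, adjusted p = 0.017). ALDOC was named after its values were seen, and its call was lost without replicate b or c of either group. Of 34 proteasome subunits 1 passed and then 0, and of 63 histone genes tested 0 passed in either fit, and 7 of them reached 3 log2 CPM. Of 31 ERBB, IGF and PI3K signalling genes 9 passed and then 1, ERBB2.

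Whether anastrozole acted differently with and without E2 was tested by the interaction over all 12 libraries. As the counts stand 2295 genes passed (10.9% of those tested), and with the GC trend removed 553 did (2.62% of those tested). The interaction contains the difference in the presence of E2, on which the zinc, iron and sterol genes named here were chosen, so its p-values for them are no independent support. SLC39A10 read 67.0, 71.9 and 69.1 CPM with vehicle and 65.3, 58.0 and 56.1 CPM with anastrozole alone, a log2 difference of −0.21 against −0.93 in the presence of E2 (corrected interaction adjusted p = 1.5e-12). MT2A read 8.25, 6.92 and 9.18 CPM with vehicle and 9.30, 9.50 and 9.77 CPM with anastrozole alone, 0.23 against 1.002 (corrected interaction adjusted p = 0.0055). For SLC30A1 the differences were 0.34 without and 0.33 with E2, and the interaction passed in neither fit (corrected interaction 0.12, adjusted p = 0.81). TFRC was at 0.10 without E2 and −0.19 with it, or 0.05 and −0.13 corrected (corrected interaction −0.19, adjusted p = 1.2e-05). Of the 27 cholesterol genes, 12 passed the interaction as the counts stand, 9 of them with a positive sign, and 1, LSS, passed it corrected. IDI1 was at −0.06 without and −0.24 with E2 (interaction adjusted p = 0.0069, corrected 0.31), and SC5D at −0.04 and −0.28 (0.00063, corrected 0.57). Corrected, IDI1 was at −0.10 (adjusted p = 0.038) without and −0.19 with E2. SC5D was at −0.11 (adjusted p = 0.046) and −0.18 corrected, so both genes also passed with anastrozole alone. FDPS (−0.28 without and −0.17 with E2), SQLE (−0.19 and −0.17) and INSIG1 (−0.14 and −0.16) passed the interaction in neither fit.

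Of 32 interferon-stimulated genes, 16 passed the corrected interaction, all with a positive sign, against 2.62% of all genes, of which 263 of 553 had that sign. In the comparison with E2 present 1 rose (IRF7) and 1 fell (IFIT2) as the counts stand and 1 (IFI6) fell corrected, beside backgrounds of 6.74% and 0.937%. With 1 library left out, IRF7 passed in 2 of 6 fits and IFIT2 in 1 of 6. The corrected call of IFI6 was lost without E2 replicate b. The members named here were picked after their values were seen. IRF7 was at −0.47 without and 0.27 with E2 as the counts stand. IFIT2 (−0.03 and −0.32) and STAT2 (−0.02 and 0.03) did not pass the corrected interaction. MX1, an antiviral GTPase, read 136, 143 and 138 CPM with vehicle and 76.7, 77.9 and 83.9 CPM with anastrozole alone. It read 94.4, 89.1 and 89.6 CPM with E2 and 89.4, 89.7 and 96.6 CPM with both, so that both E2 groups lay between the other groups and overlapped each other. Its log2 difference was −0.81 without and 0.01 with E2 (corrected interaction adjusted p = 3.2e-39). OAS2, an RNA-sensing synthetase, was at −0.73 without and 0.11 with E2, and IFIT1, which binds viral RNA, at −0.84 and −0.11. TXNIP, a glucose-responsive arrestin-domain protein, had an interaction of the other sign, at 0.48 without and −0.08 with E2 (corrected interaction adjusted p = 1.0e-24). NME1 was at −0.47 without and 0.36 with E2.

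**Figure D5:**
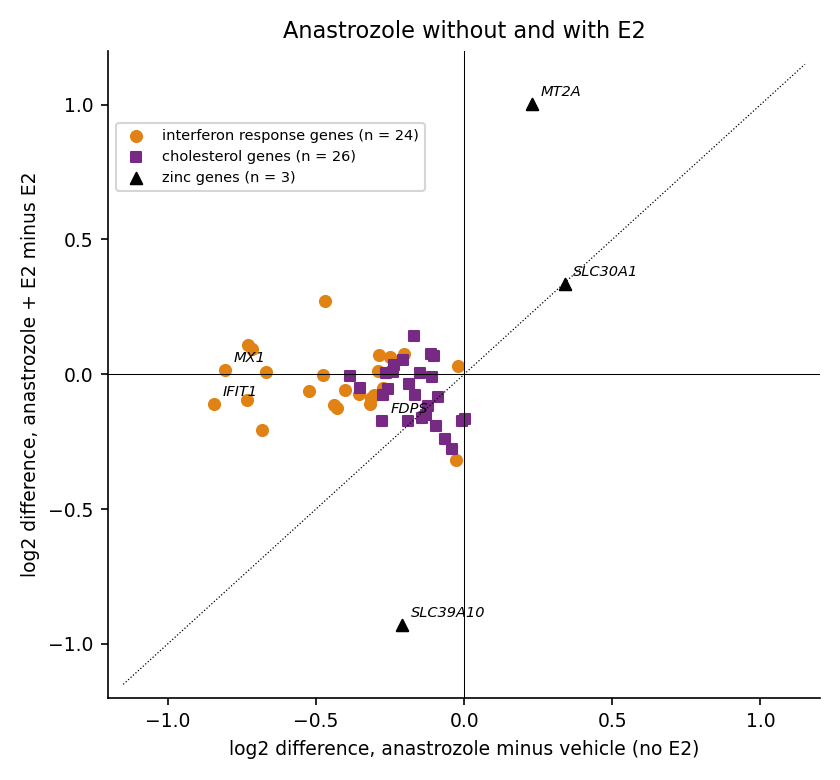
Log2 difference made by anastrozole in the presence of E2 (y axis) against that in its absence (x axis), as the counts stand, for genes of at least 3 log2 CPM of the interferon list (24, orange), the cholesterol list (26, purple) and 3 zinc genes (black); the dotted line marks equal values. Interferon genes spread along the x axis to −0.84 at y values between −0.32 and 0.27, and SLC39A10 and MT2A lie far from 0 on the y axis.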

How the data were processed

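The authors aligned reads to hg19 with TopHat2 2.0.14 and Bowtie2 2.2.6 per the labels and counted them with htseq-count; its version, strand setting and annotation are not given in the sources used here. The deposited values are raw counts of reads per gene for 25370 genes and 5 summary lines, not normalized; reads of no gene feature made up 58.6% to 59.9% of a library and stayed out of totals. Libraries were made from total RNA, while the labels name polyA RNA. Genes with 0 counts in all libraries (4238) were dropped, as the authors did.

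From the counts, edgeR 4.0.16 (R 4.3.3; TMM, robust quasi-likelihood F test, 2-sided, Benjamini-Hochberg over 21132 genes, threshold 0.05) was fitted on the 6 libraries, and on 12 for the interaction. SE is the absolute log2 fold change over the square root of F. CPM was scaled by TMM over 12 libraries. The GC trend of each library was fitted by lowess (span 0.5) on genes averaging 3 log2 CPM or more and entered as an offset, which also removes true change that follows GC content. Exon GC content came from GENCODE 44 lifted to GRCh37, whose main chromosomes hg19 shares: 21539 symbols matched, 1498 matched by an older symbol and 2333 did not, and the trend covered 98.3% of the 11058 genes of at least 3 log2 CPM. Genes without a GC value (8 of the 198) kept no offset.

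The comparison, gene lists and tests were chosen with earlier results of these data known. Named genes had at least 2 log2 CPM and passed in both fits in the same direction: the 15 highest and 15 lowest, up to 3 per list, 3 each way of at least 5 log2 CPM that passed only without the correction, and 6 fixed genes (CYP19A1, ESR1, PGR, GREB1, TFF1, CSMD1); a selection is printed, and others are marked as picked after their values were seen. Motif matches were searched in RefSeq promoter windows (GRCh38.p14). Alternatives were DESeq2 1.42.0, limma-voom (limma 3.58.1), other scaling and filters, the replicate block, other GC settings, thinning and leaving out each library. Fits were tested on simulated data with 200 changed genes, and the outcome is not reported here. A few items are not reported here.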

Additional observations from a re-analysis of the deposited data

Results flagged for a closer look

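For the genes below, the effect of anastrozole with E2 minus its effect without E2 (a log2 difference, the interaction) passed the edgeR quasi-likelihood test both as the counts stand and with the GC trend removed (corrected). Many of them were chosen on the difference in the presence of E2, which the interaction contains. Of the zinc and iron genes, SLC39A10 was at −0.72 (−0.58 corrected), MT2A at 0.77 (0.67 corrected) and TFRC at −0.29 (−0.19 corrected).

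Of the interferon-stimulated genes, OAS2 was at 0.84 (0.88 corrected), MX1 at 0.82 (0.81 corrected), ISG15 at 0.81 (0.56 corrected) and IFIT1 at 0.73 (0.84 corrected). IFI27 was at 0.68 (0.58 corrected), IFI6 at 0.64 (0.50 corrected) and OAS3 at 0.47 (0.47 corrected). Of the thioredoxin genes, TXNIP was at −0.56 (−0.46 corrected) and TXNRD1 at −0.23 (−0.19 corrected). Of the RNA-binding proteins, SFPQ was at 0.30 (0.37 corrected) and EWSR1 at 0.21 (0.30 corrected).

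TFF3 was at 0.49 (0.37 corrected), MUC1 at 0.35 (0.17 corrected), ERBB2 at 0.30 (0.15 corrected) and SCUBE2 at 0.22 (0.21 corrected). LSS was at 0.30 (0.17 corrected), RPS16 at 0.30 (0.27 corrected) and ATP5G1 at 0.37 (0.36 corrected). FOXJ1 was at 0.85 (0.55 corrected), NME1 at 0.83 (0.87 corrected), CDC20B at 0.39 (0.45 corrected) and TMEM261 at 0.38 (0.51 corrected). On the negative side, KIF5C was at −0.90 (−0.85 corrected), RHBDL3 at −0.71 (−0.87 corrected), FAM184A at −0.60 (−0.45 corrected), ERVV-2 at −0.59 (−0.56 corrected) and IER3 at −0.34 (−0.51 corrected).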

How the results depend on the processing

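The count of 1424 genes became 647 with the DESeq2 test, 451 with limma-voom, 824 with all 12 libraries in the fit, 198 with the GC trend removed and 204 with that and the replicate block. Leaving out 1 library gave 885 to 1176, with 885 without E2 replicate c and 935 without anastrozole plus E2 replicate c. The count of 198 became 126 after filterByExpr, 52 with DESeq2 and 13 with limma-voom, and leaving out 1 library gave 86 to 197 (103 without E2 replicate a, 86 without E2 replicate b, 119 and 105 without anastrozole plus E2 replicates b and c). The 13 genes that limma-voom called were SLC39A10, S100A4, IER3, FDPS, IDI1, SC5D, TFRC, SERPINA6, NEAT1, CNBP, CSRP1, CDC20B and MT2A. The interaction count of 2295 became 553 with the GC trend removed and 647 with that and the replicate block; leaving out 1 library gave 1535 to 3202. Of the genes examined one by one, 78 were called as the counts stand and 68 with the GC trend removed, and with the sign kept a call was lost in 178 of 1292 and 245 of 983 of their gene-by-setting values. IGFBP4 changed sign, from 0.10 to −0.019 with the GC trend removed and −0.019 with that and the replicate block; no other of the 78 and 68 genes did under these alternatives. Over all 1424 called genes, 37 changed sign with the GC trend removed. DESeq2 gave no adjusted p in 37 and 58 cases, among them MT2A and SLC30A1 in both fits and SLC39A10 with the GC correction. The cause of these shifts was not tested.

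Whether replicate letters pair the samples was not settled. Deviations of same-lettered E2 and anastrozole plus E2 libraries correlated at 0.28, 0.04 and 0.14 for a, b and c. E2 a and E2 c each correlated best with the same letter, while E2 b correlated best with anastrozole plus E2 c (0.21). The replicate block gave 1487 genes as the counts stand and 204 corrected. A count of 3 was 0.177 to 0.237 CPM, and CYP19A1 lay under it in all 6 libraries.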
